A study of Mus musculus with 21 samples.

Results

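The 8 genes described here act in vitamin A handling and were measured in whole embryonic mouse small intestine of embryos labelled mutant or wild type for Prdm1, the gene of the transcriptional repressor Blimp1. They are Bco1, Rbp2, Rbp4, Lrat, Dhrs3, Crabp2, Rarb and Isx. The members were chosen by name, as every probe whose platform gene symbol, current or older, was one of these 8 genes, which gave 12 of the 45281 probes of the array. The 8 genes are among 19057 that the array's annotation names. RNA came from small intestine of E18.5 embryos of mixed strain and was hybridised to Illumina WG6_V2 bead arrays, with 10 samples labelled Prdm1-/- and 11 labelled Prdm1+/+. The embryos labelled Prdm1-/- carried the Villin-Cre transgene and the Prdm1 alleles CA and BEH, and those labelled Prdm1+/+ carried a CA allele and a wild-type allele, with no Cre named. Their mothers were homozygous for CA and carried an R26R allele. Whether single embryos inherited R26R is not stated in the labels. The Villin promoter drives Cre in the gut epithelium, so the other cells of the mutant gut keep the unrecombined CA allele beside BEH. Cre and the loss of Prdm1 go together in these groups, and their effects cannot be told apart.

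Vitamin A reaches the gut as plant carotenoids or as retinyl esters of animal food. Bco1 cleaves beta-carotene to retinal, Rbp2 binds retinal and retinol inside the enterocyte, and Lrat attaches a fatty acid to retinol so that retinyl esters can leave with chylomicrons. Isx is a homeobox repressor of the intestine that lowers Bco1 and the carotenoid transporter Scarb1 in mice when retinoic acid is plentiful. Dhrs3 reduces retinal to retinol, Rbp4 carries retinol in blood, Crabp2 delivers retinoic acid to the nucleus, and Rarb is a retinoic acid receptor that is itself switched on by retinoic acid.

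The bases before the gene start are shown for the 3 members that passed the test, Bco1, Rbp2 and Lrat, and for Rarb, whose start carries a known response element. Each run holds the 250 bases before the start, 5′ to 3′ on the gene's strand, from RefSeq on GRCm38.p6. Capitals mark matches, on either strand, to AGGTCA, the half-site of nuclear receptors, to its pairs, to GAAAGT, the core of the motif bound by Blimp1, or to the Rarb element.
Bco1, chr8:117095615-117095864, plus strand: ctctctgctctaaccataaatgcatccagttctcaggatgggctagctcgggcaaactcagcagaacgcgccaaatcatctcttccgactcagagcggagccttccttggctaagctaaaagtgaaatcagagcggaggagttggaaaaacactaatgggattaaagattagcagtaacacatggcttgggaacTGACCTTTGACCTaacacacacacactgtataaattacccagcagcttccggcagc
Rbp2, chr9:98490287-98490536, plus strand: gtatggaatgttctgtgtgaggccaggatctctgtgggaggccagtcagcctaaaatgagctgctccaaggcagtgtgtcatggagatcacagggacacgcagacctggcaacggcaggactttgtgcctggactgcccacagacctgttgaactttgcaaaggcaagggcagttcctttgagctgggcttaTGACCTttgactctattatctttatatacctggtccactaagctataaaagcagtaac
Lrat, chr3:82903975-82904224, minus strand: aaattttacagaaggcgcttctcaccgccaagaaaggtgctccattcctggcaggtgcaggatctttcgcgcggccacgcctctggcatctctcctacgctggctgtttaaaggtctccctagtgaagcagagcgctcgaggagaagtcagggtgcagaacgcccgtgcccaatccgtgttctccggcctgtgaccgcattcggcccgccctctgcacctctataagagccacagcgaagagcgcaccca
Rarb, chr14:16575477-16575726, minus strand: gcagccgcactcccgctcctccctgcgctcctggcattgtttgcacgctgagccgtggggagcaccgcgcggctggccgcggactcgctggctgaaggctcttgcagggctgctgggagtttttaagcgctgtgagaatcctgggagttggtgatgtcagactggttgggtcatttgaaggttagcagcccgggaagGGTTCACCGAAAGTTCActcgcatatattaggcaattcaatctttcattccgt
The search ran over windows of 300 bases, 250 before and 50 after the start, and 7 of the 8 members had one in the table. The Bco1 window held the half-site on the minus strand at -56 and at -49, which together form an exact pair spaced by 1 base. Such a pair, AGGTCA repeated in the same direction after 1 base with at most 1 mismatch, was found in 0.554% of 32851 promoters. The Rbp2 window held 1 half-site on the minus strand, at -58, and AGGTCA alone was found in 16.3% of promoters. The windows of Lrat and Isx held none of these letters. In Rarb the element, GGTTCA and AGTTCA with 5 bases between them, began at -53 and overlapped GAAAGT at -45. Dhrs3, with 3 overlapping windows in the table, held GAAAGT at 2 places, 1 on each strand, and the windows of Rbp4 held none of the letters searched. GAAAGT was found in 14.3% of promoters, and the Rarb element, whose letters were chosen after the Rarb window was seen, in 0.00609%. The pairs of AGGTCA spaced by 2 and by 5 bases, again with at most 1 mismatch, were in no member's window and in 0.253% and 0.262% of promoters. These matches describe letters only.

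Levels are log2 intensities after background correction and quantile normalisation, and levels of different probes cannot be set against each other. A probe was counted as detected on an array where its deposited detection p was under 0.01, and 14596 to 16085 probes were detected per array. Differences are labelled mutant minus labelled control, tested with limma. The adjusted p is Benjamini-Hochberg over the 16641 probes detected on at least 5 of 21 arrays, and a probe was called at an adjusted p under 0.05. As a check of the labels, the Prdm1 probe ILMN_2597923 was detected on 10 of 10 arrays labelled Prdm1-/- and on 0 of 11 labelled Prdm1+/+. It averaged 7.99 ± 0.59 in labelled mutants and 4.55 ± 0.22 in labelled controls (SD), at least 7.31-fold higher in labelled mutants (limma adjusted p = 1.64e-12). The second Prdm1 probe was undetected on all arrays. Transcript of Prdm1 thus ran opposite to what the genotype names say, and the position of the probe relative to the deleted part is unknown here. Every direction below therefore rests on the labels. Sis, the sucrase-isomaltase of the mature brush border, averaged 12.61 ± 0.29 in labelled mutants and 5.99 ± 0.28 in labelled controls, and its groups did not overlap (difference 6.62 ± 0.12 SE, limma adjusted p = 2.05e-21). The labels call the samples biological replicates without naming litters, so the tests measure the spread between these samples.

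Of the 12 member probes, 6 passed the detection filter. Of these 3 were called, which is to be read beside 20.9% of all probes tested, and for 0 of the 6 were the groups free of overlap, beside 3.71% of all probes tested. Bco1 was higher in labelled mutants, and Lrat and 1 of the 2 Rbp2 probes were lower. Over all probes tested, 9.49% were called higher and 11.4% lower. Over all genes tested, with 1 probe a gene, the shares were 10.6% and 12.6%. Probes of Rbp4, Dhrs3 and Crabp2 were undetected on all 21 arrays.

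**Figure D1:**
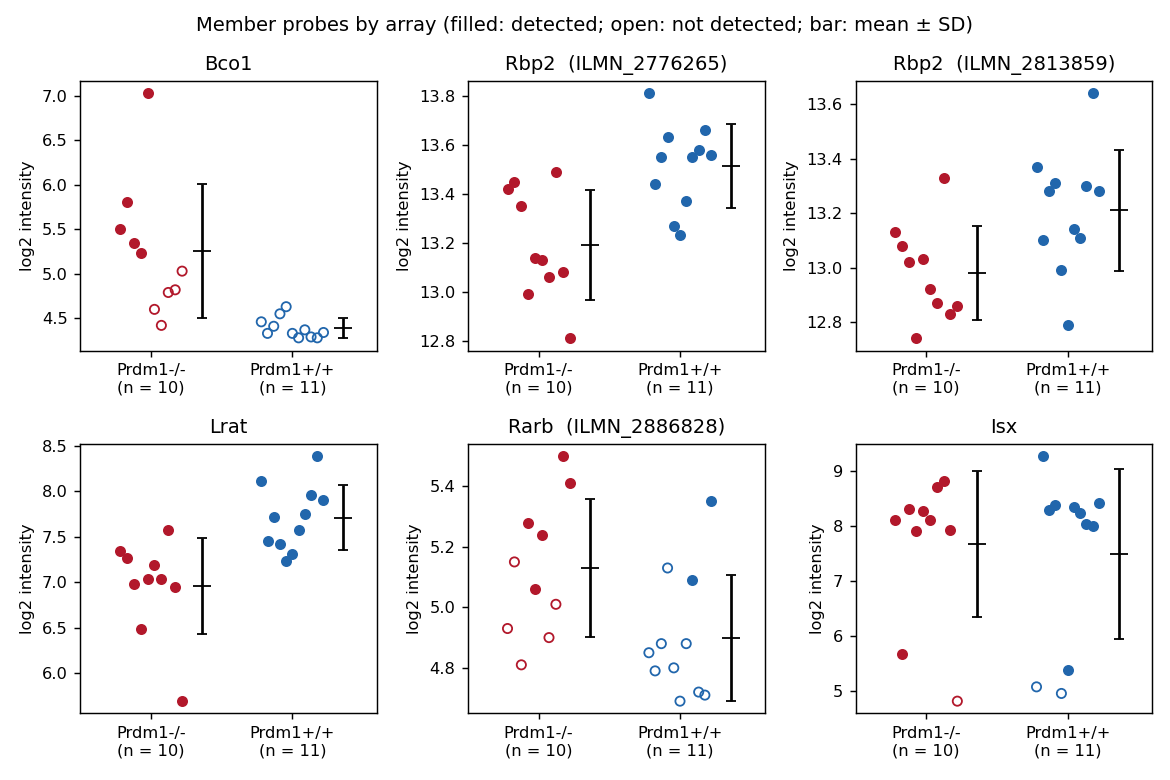
Log2 intensity (vertical axes) of the 6 tested member probes on each array, Prdm1-/- on the left and Prdm1+/+ on the right, with filled points for arrays on which the probe was detected, open points for the others, and the mean ± SD beside each group. The Bco1 points of the labelled controls lie together between 4.28 and 4.63, while those of the labelled mutants run to 7.03, and Isx forms separate upper and lower levels in both groups.

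Bco1, the cleaving enzyme, was detected on 5 of 10 labelled mutant arrays and on 0 of 11 labelled control arrays. Its log2 intensity in labelled mutants 1 to 10 was 5.50, 5.81, 5.35, 5.23, 7.03, 4.60, 4.42, 4.79, 4.82 and 5.03. In labelled controls the lowest was 4.28, the median 4.34 and the highest 4.63. Mutants 1 to 5 were the detected arrays, and only mutants 6 and 7 lay within the range of the controls. The groups averaged 5.26 ± 0.75 (SD, n = 10) in labelled mutants and 4.39 ± 0.12 (SD, n = 11) in labelled controls. The difference was 0.87 ± 0.21 (SE, 95% confidence interval 0.43 to 1.31, limma adjusted p = 0.00435). A two-sided permutation test of the 21 values gave p = 8e-05. Since no control reached detection, the fold is a bound, at least 1.1-fold higher in labelled mutants. The probe reached the filter of 5 arrays through labelled mutants alone, so its passing the filter is not independent of its difference. With no filter its limma adjusted p was 0.0139. With the deposited processed values the difference was 0.63 and the call was lost (adjusted p = 0.0918).

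The mutant arrays with Bco1 detected were mostly those without Car1, a carbonic anhydrase of colon epithelium. Car1 was detected in 6 labelled mutants, with log2 intensities of 5.67 to 8.07, and in 0 labelled controls. In the other 4 labelled mutants, numbers 1, 2, 3 and 5, Car1 lay between 4.31 and 4.45. Bco1 was 4.42 to 5.23 in the mutants with Car1 detected and 5.35 to 7.03 in those without, a description of arrays split after their values were seen. Leaving out the 6 mutants with Car1, the Bco1 difference was 1.53. The 4 mutants kept are those with the highest Bco1, so this larger difference follows from the choice of arrays and is given with no test. Of the 4 tested genes of the colon list of 8, 2 were higher in labelled mutants, Car1 and 1810065E05Rik. Like Bco1, Car1 passed the detection filter through labelled mutants alone. Aqp8 was lower (difference -1.58) with no overlap, and Hoxa13 did not pass. 1810065E05Rik was detected in all 10 labelled mutants, so mutants 1, 2, 3 and 5 did not lack every colon marker. It was 6.11 to 6.71 in those 4 and at most 5.39 in labelled controls. Summed linear levels were 349 to 1040 in labelled mutants and 454 to 756 in labelled controls, with Hoxb13 undetected on every array. Each sum is weighted to the brightest probes of its list, and does not measure an amount of cells.

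Rbp2, the retinol-binding protein of the enterocyte, was read by 2 probes, both detected on all 21 arrays. On ILMN_2776265 the lowest, median and highest log2 intensities were 12.81, 13.14 and 13.49 in labelled mutants, and 13.23, 13.55 and 13.81 in labelled controls. The groups overlapped, but 6 of 10 labelled mutants lay below the lowest control and none reached the control median. The means were 13.19 ± 0.22 in labelled mutants and 13.51 ± 0.17 in labelled controls (SD). Rbp2 was 1.25-fold lower in labelled mutants on this probe (difference -0.32 ± 0.09 SE, 95% interval -0.50 to -0.14, limma adjusted p = 0.00945, two-sided permutation p = 0.00192). ILMN_2813859 gave 12.98 ± 0.17 in labelled mutants and 13.21 ± 0.22 in labelled controls, a difference of -0.23 ± 0.09 (SE, 95% interval -0.41 to -0.05), which did not pass (limma adjusted p = 0.0648, permutation p = 0.0176). The probes followed each other across the 21 arrays with a Pearson r of 0.82 after each group's mean was subtracted. Without the 6 mutants with Car1 detected, the difference on ILMN_2776265 was -0.17 and not called (adjusted p = 0.342), and with the deposited processed values it was -0.27 and not called (adjusted p = 0.123).

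Lrat, the retinol esterifying enzyme, was also detected on every array. Its log2 intensity in labelled mutants 1 to 10 was 7.34, 7.27, 6.98, 6.48, 7.04, 7.19, 7.03, 7.58, 6.95 and 5.69. In labelled controls 1 to 11 it was 8.11, 7.45, 7.72, 7.42, 7.23, 7.31, 7.58, 7.75, 7.96, 8.39 and 7.91. Mutant 10 was the lowest array of all, 7 of 10 labelled mutants lay below the lowest control, and the groups overlapped between 7.23 and 7.58. Lrat averaged 6.95 ± 0.53 in labelled mutants and 7.71 ± 0.36 in labelled controls (SD), 1.69-fold lower in labelled mutants. The difference was -0.76 ± 0.18 (SE, 95% interval -1.14 to -0.38, limma adjusted p = 0.00402, two-sided permutation p = 0.00028). Without the 6 mutants with Car1 it was -0.56 and just outside the threshold (adjusted p = 0.0544). The arrays fell on either side of 0 on the first principal component of the normalised values with group means subtracted, with 4 labelled mutants and 6 labelled controls below and 6 labelled mutants and 5 labelled controls above. Within the arrays below 0 the differences were 0.68 for Bco1, -0.30 for Rbp2 and -0.50 for Lrat, and within those above 0 they were 1.01, -0.31 and -0.93. All kept their direction, and of these 6 only the Lrat difference below 0 passed (limma adjusted p = 0.0359), the others having adjusted p-values between 0.064 and 0.165. In whole tissue, fewer cells that carry a transcript and less transcript per cell cannot be told apart.

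The levels of Lrat and Rbp2 followed each other within both groups. With group means subtracted, Pearson's r between the 2 genes was 0.82 over 21 arrays (Spearman's rho 0.81), and it was 0.85 within the 10 labelled mutants and 0.77 within the 11 labelled controls. Without the 2 arrays farthest from the median of Rbp2, mutant 10 and control 6, it was 0.75. The points share each array's RNA, tissue piece and normalisation, so r is given as a description. The other 9 pairs among Bco1, Rbp2, Lrat, Rarb and Isx had r between -0.31 and 0.40, among them -0.13 for Bco1 with its repressor Isx. Bco1 was detected on only 5 of the 21 arrays, so this r does not measure repression.

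**Figure D2:**
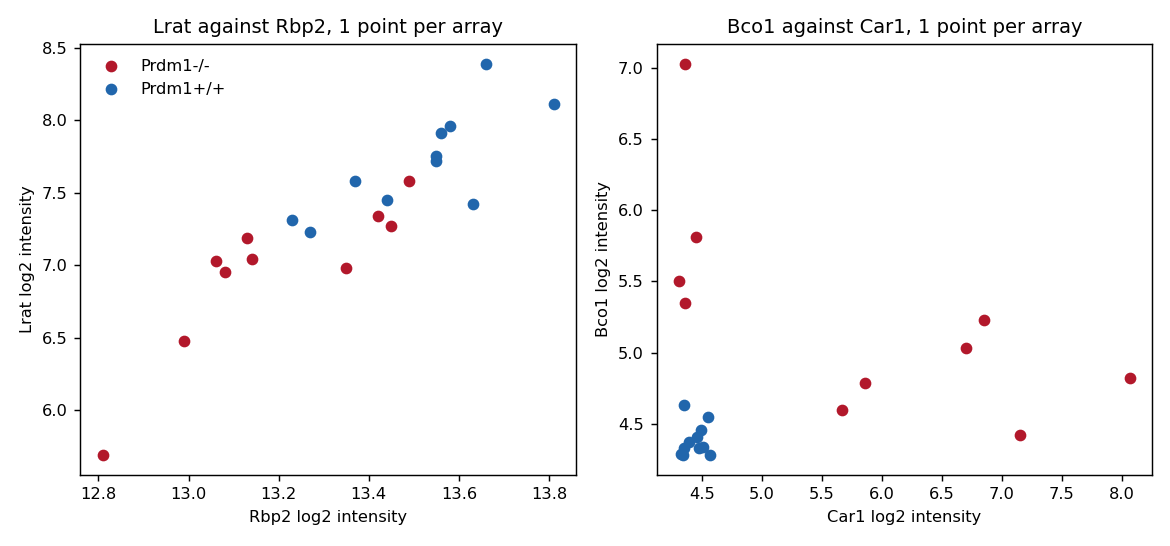
Log2 intensity of Lrat against Rbp2 (left) and of Bco1 against Car1 (right), 1 point per array, in Prdm1-/- and Prdm1+/+ samples. Lrat and Rbp2 run together in both groups, and the 4 labelled mutants with the highest Bco1 levels, 5.35 to 7.03, are those in which Car1 was not detected.

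The genes most alike in pattern differed between the members. For Bco1 they were Gm16223 (r = 0.88), the phosphate transporter gene Slc34a2 (0.83) and Mxi1 (0.79). Spearman's rho was lower, at 0.66, 0.65 and 0.69. Bco1 was detected on 5 arrays only and was highest by far in mutant 5, so these r values rest on few arrays. Slc34a2 was itself lower in labelled mutants (difference -0.80, limma adjusted p = 7.69e-05). For Rbp2 they were 1810055G02Rik (0.87), Rilp (0.87) and Tmem41a (0.83), and for Lrat Igsf23 (0.87), Ube2l6 (0.83) and Tbc1d20 (0.82). Spearman's rho was 0.83, 0.87 and 0.84 for Rbp2, and 0.79, 0.76 and 0.64 for Lrat. Igsf23 was called lower with Lrat, at -0.62 (limma adjusted p = 0.00298), and so was 1810055G02Rik with Rbp2, at -0.25 (limma adjusted p = 0.04). Each r is across 21 arrays with group means subtracted, and was the highest found among 9961 genes.

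The carriers and the retinal reductase were undetected in both groups at the threshold of 0.01. The detection p fell to 0.0107 for Crabp2 in mutant 10 and to 0.016 for Dhrs3 in mutant 7. An undetected probe does not show that its gene is silent. The Rbp4 probe averaged 4.45 ± 0.12 in labelled mutants and 4.41 ± 0.11 in labelled controls. The Crabp2 probe averaged 4.69 ± 0.22 in labelled mutants and 4.58 ± 0.16 in labelled controls. The Dhrs3 probes averaged 4.59 ± 0.15 and 4.47 ± 0.23 in labelled mutants, against 4.68 ± 0.11 and 4.37 ± 0.07 in labelled controls (SD throughout). All 4 probes were not well above background on any array, so they give no fold and no test.

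Rarb, the receptor, was dim. ILMN_2886828 was detected on 5 labelled mutant and 2 labelled control arrays, with lowest, median and highest values of 4.81, 5.10 and 5.50 in labelled mutants, and 4.69, 4.85 and 5.35 in labelled controls. The groups overlapped over most of their ranges. The difference of 0.23 ± 0.09 (SE, 95% interval 0.04 to 0.42) did not pass (limma adjusted p = 0.0889, two-sided permutation p = 0.028). It passed without control 11 (0.27, adjusted p = 0.0284) or without mutant 3 (0.27, adjusted p = 0.0473). ILMN_2617194 was detected on 3 labelled mutant arrays and 0 control arrays, averaging 4.80 ± 0.28 in labelled mutants and 4.63 ± 0.18 in labelled controls, and ILMN_1246864 on none. The genes most alike in pattern were Phf20 (r = 0.74), Pja2 (0.74) and Mex3a (0.73), with Spearman's rho of 0.66, 0.76 and 0.65.

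Isx, the repressor of Bco1, did not pass between the groups, but its level split the arrays in both of them. In labelled mutants 1 to 10 its log2 intensity was 8.12, 5.67, 8.31, 7.92, 8.28, 8.11, 8.71, 8.83, 7.94 and 4.82. In labelled controls 1 to 11 it was 5.08, 9.28, 8.29, 8.38, 4.96, 5.39, 8.36, 8.24, 8.04, 8.00 and 8.42. The 5 arrays of mutants 2 and 10 and controls 1, 5 and 6 lay between 4.82 and 5.67, and the other 16 lay between 7.92 and 9.28, with an empty gap of 2.25 log2 units. The upper level held 8 labelled mutants and 8 labelled controls. The difference between genotypes was 0.18 ± 0.58 (SE, 95% interval -1.03 to 1.38, limma adjusted p = 0.883, two-sided permutation p = 0.828). This interval leaves room for a change of about 2-fold in either direction.

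The genes that followed Isx lay on its own chromosome. The most alike were the zinc finger gene Zfp930 (r = 0.96), B3gnt3, which encodes a glycosyltransferase (0.95), and the zinc finger gene Zfp869 (0.95), with Spearman's rho of 0.87, 0.84 and 0.88. All 3, like Isx and Bco1, are on chromosome 8. On the 5 arrays with low Isx, Zfp930 reached at most 5.30 and on the other 16 it was at least 5.68. B3gnt3 reached at most 5.80 on the low arrays and was at least 6.42 on the others, and Zfp869 reached 5.95 and was at least 6.61. For each of these genes, then, the same 5 arrays were the lowest.

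**Figure D3:**
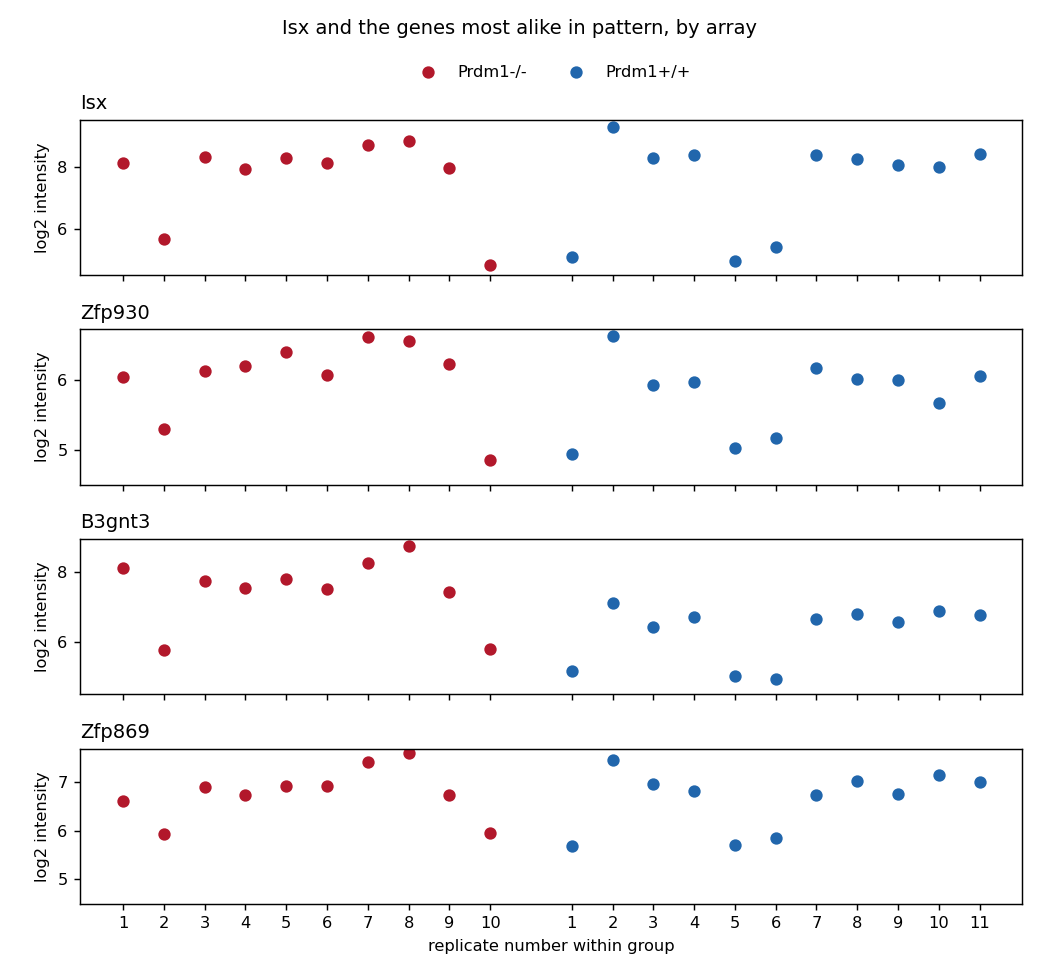
Log2 intensity (vertical axes) of Isx, Zfp930, B3gnt3 and Zfp869 by replicate number, Prdm1-/- arrays left of Prdm1+/+ arrays, 1 point per array, with each axis starting at 4.5. Mutants 2 and 10 and controls 1, 5 and 6 are low for all 4 genes.

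The genes still followed Isx within its upper level. Among the 16 arrays at the upper level r with Isx was 0.83 for Zfp930, 0.68 for B3gnt3 and 0.80 for Zfp869. All 10 genes with the largest absolute r were on chromosome 8, which held 538 of 9953 tested genes with a chromosome, or 5.41%. They lay between 72 tested genes before and 58 after Isx in RefSeq gene order. The span also held genes that did not follow Isx. F2rl3, just before it, had an r of 0.06, and Hmgxb4, just after it, -0.24. The others of the 10 fall outside the rule for named genes and are named here after their values were seen. They were Vps35 (0.92), Pgpep1 (0.89), Ccdc124 (0.87), Cyp4f18 (0.80), Ssbp4 (-0.80), Zfp868 (-0.78) and Use1 (0.77). Ssbp4 and Zfp868 thus ran opposite to Isx. Under the 3 other ways of making the values, 8 to 10 of the 10 largest were on chromosome 8.

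**Figure D4:**
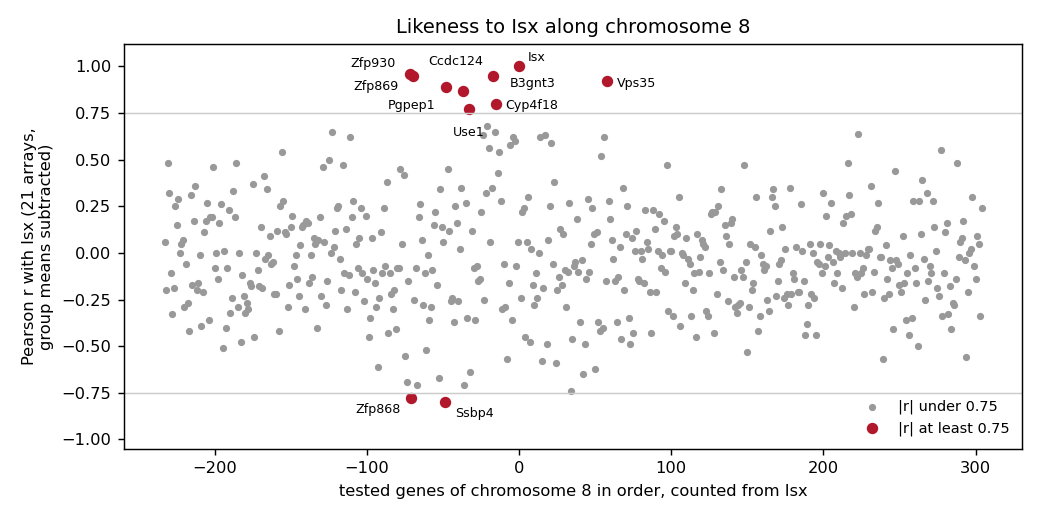
Pearson r with Isx over 21 arrays, group means subtracted (vertical axis), for the tested genes of chromosome 8 in their order along it, counted from Isx (horizontal axis). The 10 genes with an absolute r of at least 0.75, drawn in red with Isx itself, lie between -72 and 58 genes from Isx, 8 of them positive and 2 negative.

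B3gnt3 was also called between the groups, at 1.20 higher in labelled mutants (limma adjusted p = 0.0192), while Zfp930 (0.26, adjusted p = 0.479) and Zfp869 (0.12, adjusted p = 0.787) did not pass. As to sex, Xist was high in 6 labelled mutants and 6 labelled controls. With sex as a covariate 3 member probes were called, as without it.

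Other genes of the retinoid pathway were read from a list of 69, of which 64 were on the array and 41 were tested. Of these 9 were higher and 6 lower in labelled mutants, and 26 did not pass. The 15 called were 36.6% of those tested, against 23.2% of all 9961 genes. The list was chosen with earlier results of these data known, so its shares are descriptions and not an independent test. Of all genes, 10.6% were called higher and 12.6% lower, to be read beside each role below. The median difference was 0.00 in the list and 0.01 over all genes, and the median absolute difference 0.21 and 0.13. The groups did not overlap for 9 of the 41, against 4.4% of all genes.

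**Figure D5:**
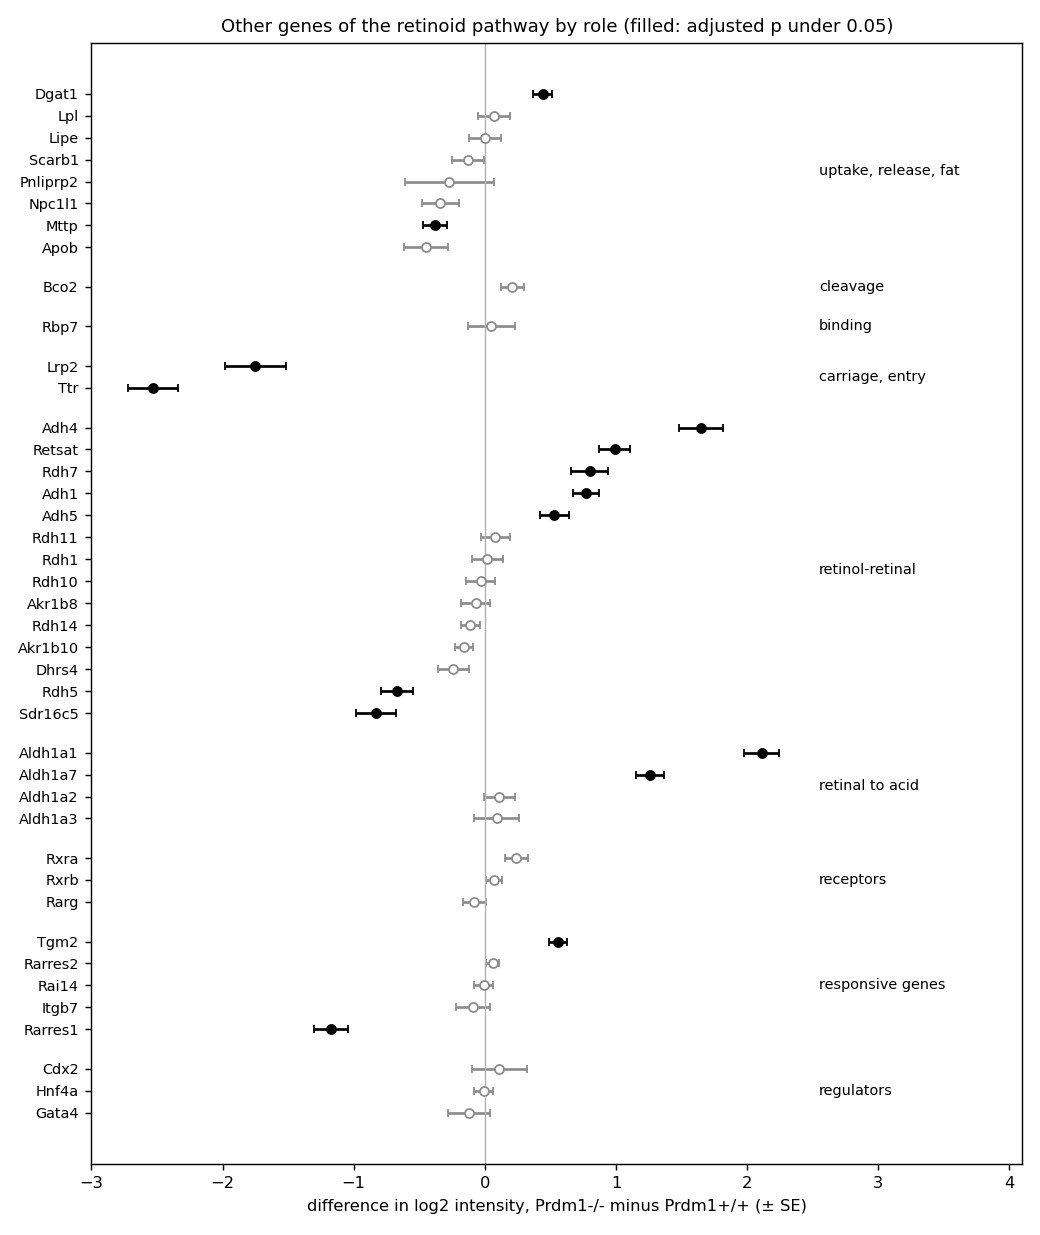
Difference in log2 intensity, Prdm1-/- minus Prdm1+/+ (horizontal axis, ± SE), of the 41 tested genes of the retinoid pathway list, grouped by role, with filled points for genes at an adjusted p under 0.05. Ttr and Lrp2 lie farthest to the left, at -2.53 and -1.75, and Aldh1a1 and Adh4 farthest to the right.

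Among enzymes that make retinoic acid from retinal, 2 of 4 were higher and 2 did not pass. Aldh1a1, retinal dehydrogenase 1, ranged over 8.67, 9.08 and 9.60 (lowest, median, highest) in labelled mutants and over 6.52, 6.97 and 7.74 in labelled controls. All labelled mutants lay above all labelled controls, by 4.32-fold on average (difference 2.11 ± 0.13 SE, limma adjusted p = 3.63e-11). Its close relative Aldh1a7 was 2.39-fold higher, at 8.98 ± 0.28 in labelled mutants and 7.72 ± 0.24 in labelled controls (limma adjusted p = 8.78e-09). Probes of such near relatives can read each other's transcript, so the 2 are not independent. Aldh1a2, the main enzyme of the early embryo, differed by 0.11 ± 0.12 and Aldh1a3 by 0.09 ± 0.17, and neither passed (adjusted p = 0.597 and 0.788).

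Among 14 genes of retinol and retinal conversion 5 were higher, 2 lower and 7 not past the threshold. Adh4, an alcohol dehydrogenase that can oxidise retinol, was detected in all 10 labelled mutants and in 0 labelled controls. It averaged 6.43 ± 0.55 in labelled mutants and 4.78 ± 0.20 in labelled controls (SD), at least 2.49-fold higher in labelled mutants (limma adjusted p = 7.5e-08). Like Bco1, it passed the detection filter through labelled mutants alone, and with no filter its adjusted p was 4.37e-07. Retsat, which saturates a double bond of retinol, ranged from 10.33 to 11.40 in labelled mutants and from 9.64 to 10.17 in labelled controls. Its groups did not overlap (1.98-fold higher, limma adjusted p = 9.54e-07). Rdh7, a retinol dehydrogenase, was higher by 0.80 ± 0.14 (limma adjusted p = 0.000187). The retinol dehydrogenase Sdr16c5 fell by 0.83, with an SE of 0.15 (limma adjusted p = 0.000225). The other called genes fall outside the rule for named genes and were chosen after their values were seen. Adh1 (0.77 ± 0.10) and Adh5 (0.53 ± 0.11), further alcohol dehydrogenases, were higher, and the retinol dehydrogenase Rdh5 was lower (-0.67 ± 0.12). Second probes of Adh1, Rdh7 and Retsat were called in the same direction, at 0.74, 0.88 and 0.97. Further probes of Adh5 and Rdh5 were undetected on all arrays, so those calls rest on 1 probe each.

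Both tested genes of retinol carriage and cell entry were lower. Ttr, the transthyretin that holds Rbp4 and its retinol in blood, ranged over 8.48, 9.02 and 9.45 in labelled mutants and over 10.55, 11.54 and 12.30 in labelled controls, with no overlap (5.78-fold lower, difference -2.53 ± 0.19 SE, limma adjusted p = 6.74e-10). Lrp2, the endocytic receptor megalin, which takes up Rbp4 in the kidney, ranged over 5.84, 6.56 and 7.46 in labelled mutants and 7.57, 8.29 and 9.22 in labelled controls (3.36-fold lower, difference -1.75 ± 0.23 SE, limma adjusted p = 4.17e-06). Further probes of Lrp2 were undetected on all arrays. Ttr is also a liver product. Of 9 tested genes of a liver list of 13, 4 were lower and 0 higher, beside 12.6% and 10.6% of all genes. Summed linear levels were 916 to 1780 in labelled mutants and 1680 to 4430 in labelled controls. Ahsg of that list did not pass (difference -0.66, limma adjusted p = 0.532) and was highest in controls 8, 9 and 11, at 8.38, 9.12 and 9.43. Over 15 settings, the fit without those 3 controls among them, the Ttr difference ran from -2.64 to -2.43. Alb, Fgb, Apoh and Cyp3a16 of the liver list were undetected on all arrays, and the part of liver tissue in the Ttr result was not tested.

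Among 8 tested genes of uptake and release, Dgat1, which can esterify retinol as well as diglyceride, was higher by 0.44 ± 0.07 (9.88 in labelled mutants and 9.44 in labelled controls, limma adjusted p = 2.84e-05). Mttp, the lipid transfer protein of chylomicron assembly, was lower (difference -0.38 ± 0.09 SE, 10.62 in labelled mutants and 11.00 in labelled controls, limma adjusted p = 0.00253). The Mttp call was lost without the 6 mutants with Car1 (-0.29, adjusted p = 0.143) and within the arrays below 0 on the first principal component (-0.33, adjusted p = 0.0711). The remaining 6 did not pass, among them Scarb1, the carotenoid transporter under Isx, at -0.13 ± 0.12 (adjusted p = 0.488). Its probe was detected on only 3 labelled mutant and 4 labelled control arrays, with means of 4.75 and 4.88. A second Scarb1 probe was undetected on every array, so this gene was read close to background. Scarb1 was chosen after its value was seen. Bco2, which cleaves carotenoids off centre, differed by 0.21 ± 0.09 (adjusted p = 0.0915), and the retinol-binding protein gene Rbp7 by 0.05 ± 0.18 (adjusted p = 0.881).

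Of genes known to respond to retinoic acid, 1 of 5 was higher, 1 lower and 3 did not pass. Tgm2, a transglutaminase induced by retinoic acid, was 1.48-fold higher (11.64 ± 0.10 in labelled mutants, 11.08 ± 0.17 in labelled controls, limma adjusted p = 1.04e-06). Rarres1, first described as a retinoic acid receptor responder in human skin cells, was 2.25-fold lower (5.25 ± 0.32 in labelled mutants, 6.42 ± 0.32 in labelled controls, limma adjusted p = 4.77e-07), and was detected in 7 of 10 labelled mutants and in all 11 controls. Both had groups without overlap. A second Rarres1 probe was undetected on every array, and a second Tgm2 probe was detected on only 1 labelled mutant array. Of the receptors, Rxra differed by 0.24 ± 0.09 (adjusted p = 0.07). By limma 0 of the 3 tested receptors passed, and 1 had an unadjusted p under 0.05. Over all genes, 3425 of 9961 had an unadjusted p under 0.05. The regulators Gata4 (-0.12 ± 0.16, adjusted p = 0.668), Cdx2 (0.11) and Hnf4a (-0.01) did not pass either, and 0 of these 3 had an unadjusted p under 0.05. Cyp26a1 and Cyp26b1, which break retinoic acid down, did not pass the detection filter.

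Markers of the gut were read beside the members. Their counts are to be read beside 10.6% of all genes called higher and 12.6% called lower. The sums are weighted to the brightest probes of a list. Among enterocytes this was Apoa4, at 15.3 in labelled mutants and 15.36 in labelled controls. Its highest value was 15.41 in both groups, as was that of Hba-a1 in labelled controls. A probe so near the top of quantile-normalised values has little room to rise, so the enterocyte sums do not measure an amount of enterocytes. The enterocyte list had 1 of 4 tested genes higher and 0 lower, with summed linear levels of 41200 to 50500 in labelled mutants and 44500 to 49600 in labelled controls. Fabp1, Fabp2 and Epcam, defining genes of enterocytes or epithelium, were undetected on every array, while Vil1, Cdx2, Apoa4 and Cdh1 passed the filter. The list of proximal small intestine had 2 of 5 genes lower and 0 higher, with sums of 5570 to 9170 in labelled mutants and 7230 to 11600 in labelled controls. The distal list had 1 of 3 higher and 0 lower, with sums of 7200 to 13100 in labelled mutants and 5900 to 13800 in labelled controls, and Slc10a2 undetected on every array. The part of position along the gut in the Rbp2, Lrat and Bco1 results was not tested.

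Other cells were read the same way, again beside 10.6% of all genes called higher and 12.6% called lower. The leukocyte list had 3 of 4 genes lower, with sums of 668 to 1050 in labelled mutants and 1410 to 1770 in labelled controls, and Ptprc undetected. Endothelium had 1 of 4 lower (954 to 1570 in labelled mutants, 1130 to 1730 in labelled controls). Enteric neurons and glia had 1 of 2 lower (456 to 555 in labelled mutants, 541 to 710 in labelled controls), with S100b undetected. Mesenchyme had 1 of 10 higher (30800 to 44000 in labelled mutants, 28900 to 40300 in labelled controls). Pancreas had 1 of 7 lower, and its sums ran from 321 to 54800 in labelled mutants and from 940 to 29300 in labelled controls, a wide spread within each group. None of 3 stomach genes was called (166 to 6110 in labelled mutants, 180 to 5080 in labelled controls), with Atp4a and Sox2 undetected. Neither of the tested blood genes was called (15200 to 32200 in labelled mutants, 19800 to 43800 in labelled controls), with Hbb-bh1 undetected. Their part in the results on the 8 genes was not tested.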

How the data were processed

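The authors deposited, per the file headers, 1 raw linear intensity value per probe and array and a detection p-value for each, and a table of processed intensity values; GenomeStudio 2009.2 is named in the submitters' processing notes. The processed columns were straight-line functions of the raw ones (largest residual 0.011 intensity units), with scale factors of 0.754 to 1.38 and column medians of 4.81 to 6.98, linear and uncentred, and no header or label names that normalisation. Raw medians were 56.6 to 79.7, and normalised arrays correlated at 0.939 to 0.989. The number of arrays limits the precision.

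From the raw values, neqc of limma 3.58.1 (R 4.3.3) fitted normexp on the detection p-values, added an offset of 16, which draws dim probes' folds towards 1, quantile normalised and took log2. Probes with detection p under 0.01 on at least 5 of 21 arrays were tested with lmFit and eBayes on genotype alone, with Benjamini-Hochberg adjustment over all of them. Permutation tests were two-sided with 100000 resamples (scipy 1.17.1). The fit was tested on simulated data. Groups were taken from sample titles. Counts over genes use 1 probe a gene, the brightest tested one. For a bound, the brighter group's mean is set against, per array, the higher of the lowest detected signal and the dim probe's own. Platform annotation gave 1 symbol for 34885 probes, several for 18 and none for 10378; 34807 matched RefSeq of GRCm38.p6, used for names, gene order and promoters.

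Named genes were all members; per pathway role up to 4 called genes of largest absolute difference, or the smallest p; the 3 genes most alike to each tested member; Prdm1 and Sis. The members and lists were chosen with earlier results of these data known. Replicate numbers do not pair samples (same-number correlations -0.25 to 0.30). Alternatives changed background correction, scaling, filter, offset, array weights and arrays included; arrays with Car1 detected, controls 8, 9 and 11, sex and array sets were alternatives chosen after seeing the data.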

Additional observations from a re-analysis of the deposited data

Results flagged for a closer look

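Of 28 probes examined for an array standing apart among the 10 labelled mutants, 2 had a gap to the next value that was a large share of the group's range, and chance alone gives such a gap in about 1 of 20 groups. Bco1 was 7.03 in mutant 5 and 5.81 in the next array, a gap of 0.468 of the range. Without mutant 5 the Bco1 call held (lowest difference over all left-out arrays 0.67, limma adjusted p at most 0.00941). The detection filter was not applied again in these fits. Bco1 was detected on mutants 1 to 5 only, so without mutant 5 it would fall short of the 5 arrays required. The call there thus rests on a filter passed with mutant 5 included. The Dhrs3 probe ILMN_2759095 was 5.05 in mutant 7 and 4.66 in the next array, a gap of 0.507 of the range, and neither value was detected.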

How the results depend on the processing

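The 3 calls of Bco1, Rbp2 (ILMN_2776265) and Lrat held when any 1 array was left out. Their differences were 0.67 to 0.97, -0.35 to -0.28 and -0.83 to -0.62. These fits called 3 to 4 member probes, 15 to 17 pathway genes and 3161 to 3534 probes. They kept the probes that had passed the detection filter with all arrays. With any 1 of mutants 1 to 5 left out, Bco1 would fall short of the 5 arrays required. Its call in those fits thus rests on a filter passed with the left-out array included. The second Rbp2 probe ranged from -0.28 to -0.19 and passed without controls 5 or 6 or mutant 8 (-0.25, -0.28 and -0.27), with median scaling (-0.29, adjusted p = 0.0119) and with array weights (-0.23, adjusted p = 0.0424). Rarb ranged from 0.19 to 0.27, and passed without controls 8, 9 and 11 (0.29, adjusted p = 0.036). Isx ranged from -0.08 to 0.49 and turned sign without control 1, 5 or 6 (-0.06, -0.08 and -0.03), and Rbp7 from -0.01 to 0.14. Bco2 passed without control 8 (0.24), and Rxra without control 1, control 4 or mutant 4 (0.28 each). With the deposited processed values and a floor of 16, 1 member probe was called, and Bco1 (0.63) and Rbp2 (-0.27, adjusted p = 0.123) were not. Median scaling called 729 probes higher and 1906 lower, against 1580 and 1905 with quantile normalisation on all 21 arrays as used above. It moved the median of all differences to -0.04. Without the labelled mutants with Car1 detected, 1888 probes and 1 member probe were called, that probe being Bco1, whose 4 kept mutants are its highest, with Rbp2 at -0.17, Lrat at -0.56 and Mttp at -0.29 (adjusted p = 0.143). Arrays also fell on either side of 0 on their first principal component, 4 labelled mutants and 6 controls below, 6 and 5 above. Below 0, 2108 probes and 1 member probe were called, with Bco1 0.68, Rbp2 -0.30, Isx -0.26, Mttp -0.33 and Rbp7 -0.02. Above 0, 1826 probes were called by limma and 0 member probes (3 at an unadjusted p under 0.05), with Bco1 1.01, Rbp2 -0.31 and Lrat -0.93. These subsets hold fewer arrays. With this side as a covariate 4356 probes and 3 member probes were called. With replicate number as a block 3080 probes and 3 member probes were called, and no member's call changed. Over 15 settings 14 to 19 pathway genes were called. Under a filter of at least 10 arrays Bco1 and Rarb were not tested. The block by slide was not run, since the headers name none. Other causes of these changes were not tested, and signal over background limits Bco1 and Rarb.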
